A study of Mus musculus with 24 samples.

Results

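K-Luc cells, a luciferase-expressing mouse glioma line derived from KR158B, were given the free CpG oligonucleotide CpG-28 or left untreated, and their poly(A) RNA was sequenced. The comparison rests on 5 of the 24 libraries of the series, 3 labelled CpG and 2 labelled untreated, found by their sample titles. The cells sat in a migration dish with a 2-well insert, adhered for 24 h, and were then exposed for 17 to 19 h to CpG-28 at 10 µg/mL or to sterile water. Another 6 K-Luc libraries served as a second, separate look at the oligonucleotide: 3 received single-walled carbon nanotubes dispersed in lipid-PEG (SWNT/LP, each component at 10 µg/mL) and 3 received those nanotubes together with CpG-28 at 10 µg/mL (CpG+SWNT/LP). The last 3 K-Luc libraries, from cells given nanotubes with CpG-28 and no lipid-PEG (SWNT/CpG, 10 µg/mL of each), entered the fit only for its run term and its estimate of spread. RAW-Blue cells, a line of RAW macrophages carrying a secreted-phosphatase reporter for NF-kB and AP-1, gave 2 untreated and 2 CpG libraries, at the same dose but after 47 to 50 h, and their fit also held 2 libraries each of the 3 nanotube treatments. No group in any of these comparisons received an oligonucleotide lacking CpG, so a response to the CpG motif and a response to added DNA cannot be told apart. The labels do not say that replicates were separate cultures, so each p-value measures only the spread between libraries, which may be technical.

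Unmethylated CpG DNA is sensed in endosomes by Toll-like receptor 9 (TLR9), which is brought there by UNC93B1, is cleaved by lysosomal proteases and signals through MYD88 to NF-kB, AP-1 and interferon regulatory factors. The route is best known in plasmacytoid dendritic cells, B cells and, in mice, macrophages, where it induces inflammatory cytokines. Tumour cells of glial origin often carry little TLR9, and synthetic oligonucleotides also bind scavenger receptors and many extracellular proteins.

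Read totals were 13.3 M and 22.5 M in the untreated libraries and 24.1, 21.4 and 23.5 M in the CpG libraries. Untreated replicate 1 is labelled run 1 and the other 4 libraries run 2, so 1 of the 2 controls differs in run from every treated library. The fit therefore used all 14 K-Luc libraries with a term for run (called for 2155 genes). The 3 run 1 libraries are replicate 1 of the untreated, CpG+SWNT/LP and SWNT/CpG groups, while replicate 1 of the CpG and SWNT/LP groups is in run 2. On the first principal component of the K-Luc libraries (39.6% of variance), untreated replicates 1 and 2 lay at -15 and -26.4 and CpG replicates 1, 2 and 3 at 16.0, 5.33 and 5.46. CpG replicate 1 thus stood apart from the other treated libraries. Replicate 1 lay higher than its companions in the SWNT/LP (-12.9 against -28.3 and -26.3), CpG+SWNT/LP (16.4 against 4.44 and 2.88) and SWNT/CpG groups (26.1 against 16.8 and 15.5) as well. That held whether replicate 1 was in run 1 or run 2. The run term can therefore take up such a shift in the untreated group but not in the CpG group. How far this shift enters the fold changes was not tested, but a fit with a term for replicate number is given in the part on processing. Levels below are CPM, read counts divided by library size on the TMM scale, and fold changes are log2 ratios of CpG over untreated ± standard error. Because the fold changes are adjusted for run, they can differ from the ratio of the printed levels. A gene is called when its adjusted p in edgeR's quasi-likelihood test, over 12420 tested genes, is under 0.05.

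The cells carried a part of the glial marker list and almost none of the macrophage list. Vim, the intermediate filament vimentin, was at 5500 and 5590 CPM in the untreated libraries, and the neural stem cell factor Sox2 at 141 and 134 CPM. Gfap, the astrocyte filament, was at 0.15 and 0.133 CPM, and Aqp4, Olig1 and Olig2 had 0 counts in the untreated and in the CpG libraries. Of 22 glial markers, 10 reached 1 CPM in the untreated group, against 7 in untreated RAW-Blue cells. Their summed level was 6880 to 6940 CPM against 2190 to 2450 CPM, so part of this list is also readable in macrophages. Of 20 macrophage markers, 2 reached 1 CPM, and their summed level was 12.2 to 15 CPM in untreated and 11.6 to 15 CPM in CpG libraries against 7440 to 8230 CPM in untreated RAW-Blue cells. Vim (0.05 ± 0.04), Sox2 (-0.07 ± 0.05) and Sox9 (-0.03 ± 0.07) were not called with CpG, nor was beta-actin, Actb (0.02 ± 0.07).

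Free CpG changed the levels of many genes by small amounts. Of the tested genes, 4498 (36.2%) were called, 2217 higher (17.9%) and 2281 lower (18.4%). The called rises had a median log2 fold change of 0.38 (quartiles 0.26 and 0.61) and the called falls a median of -0.33 (quartiles -0.47 and -0.24). Changes beyond 2-fold were mostly rises: 199 genes (1.60%) rose and 25 (0.201%) fell by more than that. The count depends on the controls: with untreated replicate 2 left out, so that the only control is the run 1 library, 1531 genes were called (645 higher, 886 lower), and with run 2 libraries alone 3143 were called (1470 higher, 1673 lower). In 27.3% of all tested genes every CpG library lay above both controls and in 26.1% every one lay below, so groups that do not overlap are common and single out no gene.

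Tlr9 itself was nearly without reads. It had 0 counts in untreated replicate 1 and in all 3 CpG libraries and stood at 0.0442 CPM in untreated replicate 2, below the level that 3 counts would give (0.124 to 0.225 CPM across the 5 libraries), and it did not enter the test. In RAW-Blue cells its log2 fold change with CpG was 0.44 ± 0.10 (adjusted p = 0.0214). Of the other 33 tested members of the TLR9 route, 6 rose and 2 fell, which is 18.2% higher against 17.9% of all genes. This became 2 rises and 1 fall without untreated replicate 2. Unc93b1, the chaperone that carries nucleic-acid-sensing receptors to endosomes, was at 5.17 and 4.91 CPM untreated and 7.08, 7 and 6.78 CPM with CpG. All CpG libraries lay above both controls (0.48 ± 0.11, adjusted p = 0.00402). Ikbke, a kinase upstream of interferon regulatory factors, rose from 10.9 and 11.6 CPM to 16.1, 15.4 and 16.6 CPM (0.51 ± 0.09), with no overlap between the groups. Lgmn, a lysosomal endopeptidase, rose (0.43 ± 0.09), as did the endosomal sorting subunit Ap3b1 (0.22 ± 0.05), whereas the signalling adaptor Traf3 fell (-0.34 ± 0.07). Myd88, the adaptor shared by most Toll-like receptors, was at 23.8 and 22.3 CPM untreated and 27.6, 26.1 and 23.3 CPM with CpG. Its ranges overlapped and it was not called (0.21 ± 0.09, adjusted p = 0.0704).

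Other Toll-like receptors had readable levels. Tlr4, the receptor for bacterial lipopolysaccharide, was at 66.7 and 62.5 CPM untreated and 77.8, 79.1 and 81.9 CPM with CpG (0.37 ± 0.08, adjusted p = 0.00191). Tlr2, the receptor for bacterial lipopeptides, was at 27.5 and 32.6 CPM untreated and 40.8, 45.6 and 43.7 CPM with CpG (0.39 ± 0.09, adjusted p = 0.00386). In each gene all CpG libraries exceeded both controls. Tlr3, which binds double-stranded RNA, also rose (0.30 ± 0.08), and with Tlr1 (0.58 ± 0.12) these made 4 of 6 tested receptors higher and 0 lower. Tlr7 was at 0.15 and 0.31 CPM untreated and 0.165, 0.14 and 0.171 CPM with CpG and was not tested. Among 16 cytosolic sensors 3 rose and 3 fell (18.8% each way), close to the shares of all genes. The RNA helicase sensors Ifih1 (0.46 ± 0.09) and Ddx58 (0.38 ± 0.08) rose, and the helicase Dhx9 (-0.49 ± 0.07) and the nucleic-acid-binding Lrrfip1 (-0.31 ± 0.05) fell. The 22 Toll-like receptors and cytosolic sensors together held 7 rises and 3 falls, or 2 and 2 without untreated replicate 2. Of 13 tested proteins reported to take up or bind oligonucleotides, 3 rose (23.1%) and 1 fell (7.69%), against 17.9% and 18.4% of all genes. Colec12, a scavenger receptor, rose from 142 and 134 CPM to 183, 170 and 166 CPM (0.38 ± 0.06), and Igf2r, which carries lysosomal enzymes, rose by less (0.27 ± 0.08). Stab2, an endothelial scavenger receptor, rose from a very low level of 0.225 and 0.221 CPM to 1.36, 0.466 and 0.512 CPM, and CpG replicate 1 held the highest value. It passed the filter on low counts only through libraries given CpG-28, so its rise lends no support to the share of rises. Nucleolin, Ncl, fell from 1740 and 1710 CPM to 1140, 1320 and 1270 CPM (-0.45 ± 0.08). In that list 1 rise and 1 fall were called without untreated replicate 2.

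The inflammatory targets of the pathway moved little. Of 24 NF-kB subunits and feedback genes 1 rose, Tnip1 (0.28 ± 0.09, adjusted p = 0.0167), an inhibitor of NF-kB signalling, and 0 fell. That is 4.17% higher, with a list median of 0.06. Its call was lost with CpG replicate 1 or untreated replicate 2 left out, with run 2 libraries alone, and with only the compared groups in the fit. Of 41 listed cytokines and chemokines, 20 passed the filter on low counts, and 3 rose and 3 fell (2 and 0 without untreated replicate 2). Cxcl12, a chemokine of stromal and tumour cells, rose from 472 and 441 CPM to 753, 719 and 681 CPM (0.67 ± 0.07, adjusted p = 5.51e-06). Cx3cl1, the membrane-bound chemokine fractalkine, rose from 132 and 121 CPM to 187, 184 and 164 CPM (0.49 ± 0.08). Neither group of libraries overlapped the other in these 2 genes. Ccl7, a monocyte-attracting chemokine, fell from 4.05 and 4.33 CPM to 2.59, 3.03 and 2.86 CPM (-0.60 ± 0.15). Clcf1, a cytokine of the interleukin-6 family, fell with overlapping ranges (91.2 and 127 CPM against 80.6, 100 and 100 CPM, -0.37 ± 0.09). Tnf, the archetypal product of TLR9 stimulation in macrophages, had 0 counts in both untreated libraries and in CpG replicates 1 and 2 and was at 0.0426 CPM in CpG replicate 3. Il6 stayed near 0.5 CPM, at 0.525 and 0.442 CPM untreated and 0.618, 0.513 and 0.469 CPM with CpG (adjusted p = 0.813).

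**Figure D1:**
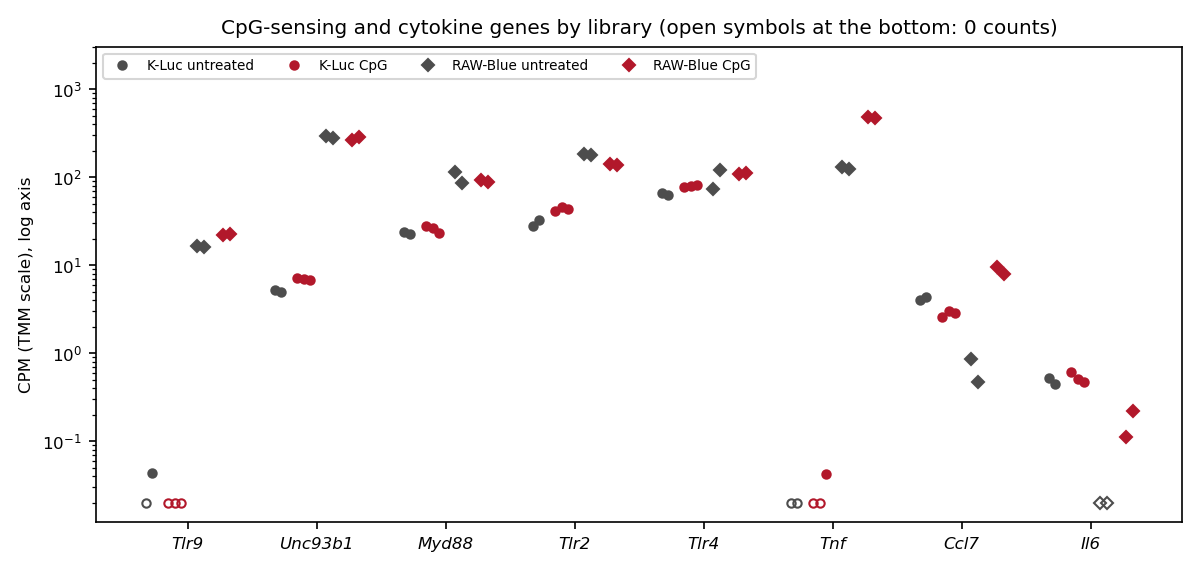
CPM on a log axis for 8 sensing and cytokine genes in single libraries of K-Luc (circles) and RAW-Blue cells (diamonds), untreated in grey and CpG in red, with open symbols at the bottom for libraries with 0 counts. Tlr9 and Tnf sit at or near 0 in all 5 K-Luc libraries, while Unc93b1, Tlr2 and Tlr4 are slightly higher with CpG than without.

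Interferon-stimulated genes gave a share of rises close to that of all genes: of 45 tested, 8 rose (17.8%) and 1 fell. Gbp2, an interferon-induced GTPase, rose from 7.12 and 7.92 CPM to 12.4, 10.9 and 11.3 CPM (0.59 ± 0.13), and Parp12 (0.32 ± 0.07) and Ifi35 (0.40 ± 0.10) rose as well. Oasl1, which restrains interferon production, fell from 2.25 and 2.79 CPM to 1.61, 1.07 and 0.896 CPM (-1.24 ± 0.25). Among 15 genes of class I antigen presentation 6 rose and 0 fell, led by the peptide-loading genes Tapbp (118 and 109 CPM against 168, 156 and 160 CPM, 0.53 ± 0.08) and Tap2 (0.58 ± 0.10). The rises numbered 1 and 2 in these lists when untreated replicate 2 was left out. They numbered 4 for the interferon-stimulated genes without CpG replicate 1 and 3 for the presentation genes without untreated replicate 1.

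Set beside these, the RAW-Blue values for the same genes were obtained at a later time, so no test was made between the lines. In RAW-Blue cells 1241 of 11514 tested genes were called (10.8%), 596 higher (5.18%) and 645 lower (5.60%), and the count moved to 2325 or 5186 with untreated replicate 1 or 2 left out and to 454 or 357 with CpG replicate 1 or 2 left out. Of 23 tested cytokines and chemokines 13 rose and 1 fell, with a median of 1.62 against -0.05 in K-Luc. Tnf rose by 1.90 ± 0.08 on the log2 scale and Ccl7 by 3.71 ± 0.33. Of 25 NF-kB genes 9 rose and 3 fell there, Tnip1 (0.74 ± 0.10) and Traf1 (0.93 ± 0.16) among the rises. In K-Luc cells Traf1 was not called (0.54 ± 0.21, adjusted p = 0.0567). Unc93b1 (-0.06 ± 0.07) and Myd88 (-0.15 ± 0.13) were not called in RAW-Blue cells.

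The steepest falls with free CpG included receptors of the interleukin-1 family. Il1rl1 encodes ST2, the receptor of interleukin-33, and stood at 168 and 293 CPM in the untreated libraries and at 57.0, 98.9 and 111 CPM in the CpG libraries. Every treated library was below both controls although the replicates of each group differed widely (-1.74 ± 0.28, adjusted p = 0.00146). Il18rap, an interleukin-18 receptor chain, fell from 39.2 and 51.0 CPM to 20.8, 28.4 and 25.1 CPM (-1.07 ± 0.12, adjusted p = 2.47e-05). Its partner Il18r1 was at 0.6 and 0.663 CPM untreated and 0.123, 0.42 and 0.0853 CPM with CpG (-1.76 ± 0.54). These were 3 of the 7 tested family members, and 0 rose. Among the groups compared here, Il18r1 reached the filter on low counts only in libraries without CpG-28. Its fall was thus favoured by the filter and lends no support to that count. The common accessory chain Il1rap was not called (-0.19 ± 0.10), and Il33, the ligand of ST2, stayed near 1 CPM (0.974 and 1.33 against 0.988, 0.979 and 0.64 CPM, adjusted p = 0.115).

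Other falls of similar size were spread over unrelated functions. Acsbg1, an acyl-CoA synthetase, fell from 5.17 and 5.31 CPM to 1.94, 1.77 and 1.92 CPM (-1.55 ± 0.17). Hmga1, an architectural chromatin protein abundant in proliferating and transformed cells, fell from 133 and 156 CPM to 73.0, 76.1 and 78.4 CPM (-1.0 ± 0.05, adjusted p = 2.97e-08). The treated libraries were nearly equal to each other and far below both controls. Tnnt2, a cardiac troponin (-1.02 ± 0.17), the orphan receptor Gpr149 (-1.01 ± 0.17), the inflammasome-family gene Nlrp2 (-1.21 ± 0.22), the mitochondrial import gene Timm8a1 (-0.93 ± 0.18), the steroid reductase Akr1c18 (-0.91 ± 0.17) and the meiotic gene Syce2 (-0.92 ± 0.13) fell too. With E2f2 and Etv4, described with their lists below, these make up the 12 largest falls that passed the test, averaged 1 or more in log2 CPM and kept the groups apart. Some genes outside that rule fell by more, Areg among them.

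The cell cycle programme fell almost in full. All 47 tested genes of DNA replication were lower with CpG (100% of the list against 18.4% of all genes), with a median of -0.63 and a range from -0.93 to -0.37. Rrm1, the large subunit of ribonucleotide reductase, was at 421 and 461 CPM untreated and 310, 329 and 309 CPM with CpG (-0.54 ± 0.05, adjusted p = 3.75e-06). Gmnn, geminin, which blocks relicensing of origins, fell from 34.0 and 34.5 CPM to 17.7, 20.3 and 20.8 CPM (-0.81 ± 0.08). No CpG library reached either control in these genes. The helicase subunit Mcm2 (300 and 350 CPM against 208, 250 and 248 CPM, -0.62 ± 0.08), the ligase Lig1 (-0.56 ± 0.06) and the clamp-loader subunit Rfc2 (-0.51 ± 0.06) fell alike, and E2f2, a transcription factor of S-phase genes, fell from 11.1 and 17.3 CPM to 7.53, 8.86 and 9.81 CPM (-0.93 ± 0.12). With untreated replicate 2 left out 41 of the 47 were still called lower, and with run 2 alone 47 were.

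Of 59 mitosis genes 58 fell and 0 rose, with a median of -0.58. Cdc20, which activates the anaphase-promoting complex, was at 159 and 177 CPM untreated and 122, 121 and 118 CPM with CpG (-0.54 ± 0.05, adjusted p = 2.12e-06). Cenpf, a kinetochore protein, fell from 437 and 454 CPM to 292, 290 and 294 CPM (-0.57 ± 0.05), and the spindle checkpoint kinase-like Bub1b from 205 and 216 CPM to 139, 146 and 147 CPM (-0.56 ± 0.05). In all of these the treated libraries were closely spaced and separate from the controls. Hmmr, a spindle-associated hyaluronan receptor (-0.59 ± 0.05), the mitotic kinase Cdk1 (-0.69 ± 0.08) and the proliferation marker Mki67 (1210 and 1400 CPM against 881, 986 and 1000 CPM, -0.55 ± 0.06) fell by similar amounts. The exception was Pttg1, securin, at 15.6 and 18 CPM untreated and 17.6, 16.9 and 16.6 CPM with CpG (-0.05 ± 0.08, adjusted p = 0.676). Leaving out untreated replicate 2 left 55 falls. In bulk RNA, fewer cycling cells and less of these messages in each cycling cell cannot be told apart.

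Mitotic genes are known to share promoter elements through which the DREAM and MYB-MuvB complexes act, a cell cycle homology region (CHR) near the start site and CCAAT boxes upstream of it. RefSeq promoter windows on GRCm38.p6, from 250 bases before to 50 bases after the start, were found for 48 of the 59 genes. A gene was counted when any of its windows held the motif. The letters TTTGAA, the CHR core, on either strand stood in 34 of them (70.8%) against 20.2% of all 27025 genes with windows and 13.8% of the 9449 such genes tested here. The letters ATTGG, the CCAAT box, on either strand stood in 77.1% against 41.1% of all genes with windows, and both motifs stood in 62.5% against 7.97%. The motifs can share at most 1 base, and a match is a description of the letters and not a site. The 4 genes shown were taken by smallest adjusted p among mitosis genes whose CHR core lies in the 100 bases before the start. Genes with several windows, and genes in a part of the genome that was left out, were skipped. Other such genes with a smaller adjusted p may thus be missing. Below are those 100 bases for the 4 genes, shown because the motif holds nearly the same place in genes that fell together. Each runs 5′ to 3′ on the gene's strand with the CHR core and CCAAT boxes in capitals: Cdc20 (chr4:118437344-118437443, minus strand), Ncapg (chr5:45669825-45669924, plus strand), Kif22 (chr7:127042421-127042520, minus strand) and Kif11 (chr19:37376282-37376381, plus strand).
Cdc20: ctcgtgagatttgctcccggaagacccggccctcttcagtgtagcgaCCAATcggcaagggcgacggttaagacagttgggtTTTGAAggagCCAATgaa
Ncapg: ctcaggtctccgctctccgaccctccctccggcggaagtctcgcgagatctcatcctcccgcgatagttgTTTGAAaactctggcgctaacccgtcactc
Kif22: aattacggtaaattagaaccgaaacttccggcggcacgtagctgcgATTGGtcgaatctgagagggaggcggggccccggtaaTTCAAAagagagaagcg
Kif11: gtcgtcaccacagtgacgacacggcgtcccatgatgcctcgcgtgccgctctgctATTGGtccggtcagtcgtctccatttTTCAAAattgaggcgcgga
The first base of the CHR core lies 18, 30, 17 and 19 bases before the start in Cdc20, Ncapg, Kif22 and Kif11. It is on the gene's strand in Cdc20 and Ncapg and on the opposite strand in Kif22 and Kif11. Ncapg, a condensin subunit, fell from 194 and 200 CPM to 116, 128 and 126 CPM (-0.67 ± 0.07). Kif22 (-0.59 ± 0.06) and Kif11 (-0.57 ± 0.06), both spindle motors, fell by close to the same amount. Nearly all genes of the list fell, and whether the motif goes with a fall was not tested.

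Regulators of cell cycle entry changed in both directions, with 8 of 21 tested higher and 7 lower (5 and 4 without untreated replicate 2). Ccnd1, cyclin D1, which opens G1, fell from 488 and 453 CPM to 339, 342 and 361 CPM (-0.44 ± 0.06), and the pocket protein gene Rbl1, itself an E2F target, fell from 114 and 116 CPM to 72.8, 84.1 and 84.1 CPM (-0.56 ± 0.09). Ccnd2, cyclin D2, went the other way, from 331 and 301 CPM to 388, 362 and 396 CPM (0.28 ± 0.06). Btg2, an antiproliferative gene (7.12 and 7.79 CPM against 11.9, 12.5 and 13.4 CPM, 0.74 ± 0.12), and the growth-arrest gene Gas1 (136 and 155 CPM against 189, 197 and 199 CPM, 0.37 ± 0.06) rose. The inhibitor Cdkn1b, p27, was called higher although its libraries overlapped (159 and 132 CPM against 155, 149 and 154 CPM, 0.25 ± 0.05). Cdkn1a, the p53-induced inhibitor p21, was not called (15.2 and 15.2 CPM against 18.6, 16.8 and 12.8 CPM, adjusted p = 0.501). Among 23 p53 targets and apoptosis genes 5 rose (21.7%) and 4 fell (17.4%), close to the shares of all genes, and 4 and 1 did so without untreated replicate 2. The rises were the death receptor Fas (2.85 and 3.89 CPM against 6.67, 8.44 and 7.85 CPM, 1.1 ± 0.16), Trp53inp1 (1.14 ± 0.17), Sesn1 (0.55 ± 0.06), Bcl2l11 (0.46 ± 0.07), which encodes the death-promoting protein BIM, and Bbc3 (0.43 ± 0.15). The falls included the ectodysplasin receptor gene Eda2r (-0.78 ± 0.24), the nuclease gene Aen (-0.47 ± 0.13) and the caspase gene Casp8 (-0.24 ± 0.06).

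Genes of growth and biosynthesis fell with the cell cycle. Of 41 ribosome biogenesis genes and MYC targets 38 fell and 0 rose (median -0.45). Nhp2, a small nucleolar ribonucleoprotein subunit, was at 71.2 and 82.9 CPM untreated and 49.0, 57.5 and 51.7 CPM with CpG (-0.66 ± 0.08), and the nucleolar gene Tcof1, needed for rRNA synthesis, fell from 190 and 187 CPM to 135, 139 and 144 CPM (-0.50 ± 0.06). Of 31 nucleotide metabolism genes 20 fell and 1 rose (median -0.30), the salvage kinases Dck (-0.53 ± 0.07) and Tk1 (-0.60 ± 0.10) and the pyrimidine synthesis genes Umps (-0.60 ± 0.08) and Cad (-0.41 ± 0.06) among the falls. These lists share members, Cad for one. The falls numbered 22 and 7 when untreated replicate 2 was left out.

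Glycolysis fell in part. Of 20 glycolytic genes 12 fell and 0 rose, and of 16 further hypoxia targets 6 fell and 2 rose. Ldha, lactate dehydrogenase A, was at 730 and 826 CPM untreated and 569, 625 and 559 CPM with CpG (-0.47 ± 0.05, adjusted p = 1.44e-05). Tpi1 (362 and 386 CPM against 293, 290 and 269 CPM, -0.40 ± 0.05), Pkm (-0.31 ± 0.04) and the angiogenic factor Vegfa (109 and 110 CPM against 77.3, 86.6 and 82.3 CPM, -0.43 ± 0.05) also fell. Several glycolytic genes have processed copies in the mouse genome that could take some of their reads, so their levels are uncertain. The mitochondrial respiratory chain fell by less, with 17 of 42 genes lower, 0 higher and a median of -0.15, led by Cyc1 (-0.34 ± 0.05). When untreated replicate 2 was left out, 8 of the 36 glycolysis and hypoxia genes and 5 respiratory chain genes were called lower.

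Serine and one-carbon genes driven by ATF4, the amino acid stress factor, were among the most precisely measured falls. Shmt2, the mitochondrial serine hydroxymethyltransferase, was at 231 and 243 CPM untreated and 156, 169 and 160 CPM with CpG (-0.63 ± 0.05, adjusted p = 1.13e-06). Psat1 fell from 619 and 723 CPM to 436, 473 and 455 CPM (-0.65 ± 0.07), Mthfd2 from 133 and 146 CPM to 95.9, 110 and 96.7 CPM (-0.55 ± 0.06) and the asparagine synthetase Asns from 187 and 203 CPM to 153, 159 and 147 CPM (-0.41 ± 0.05). In each the groups were separate. In all 10 of 19 ATF4 targets fell and 1 rose, whereas of 16 genes of the endoplasmic reticulum unfolded protein response 4 rose and 0 fell. The 35 genes together had 7 falls and 0 rises without untreated replicate 2.

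**Figure D2:**
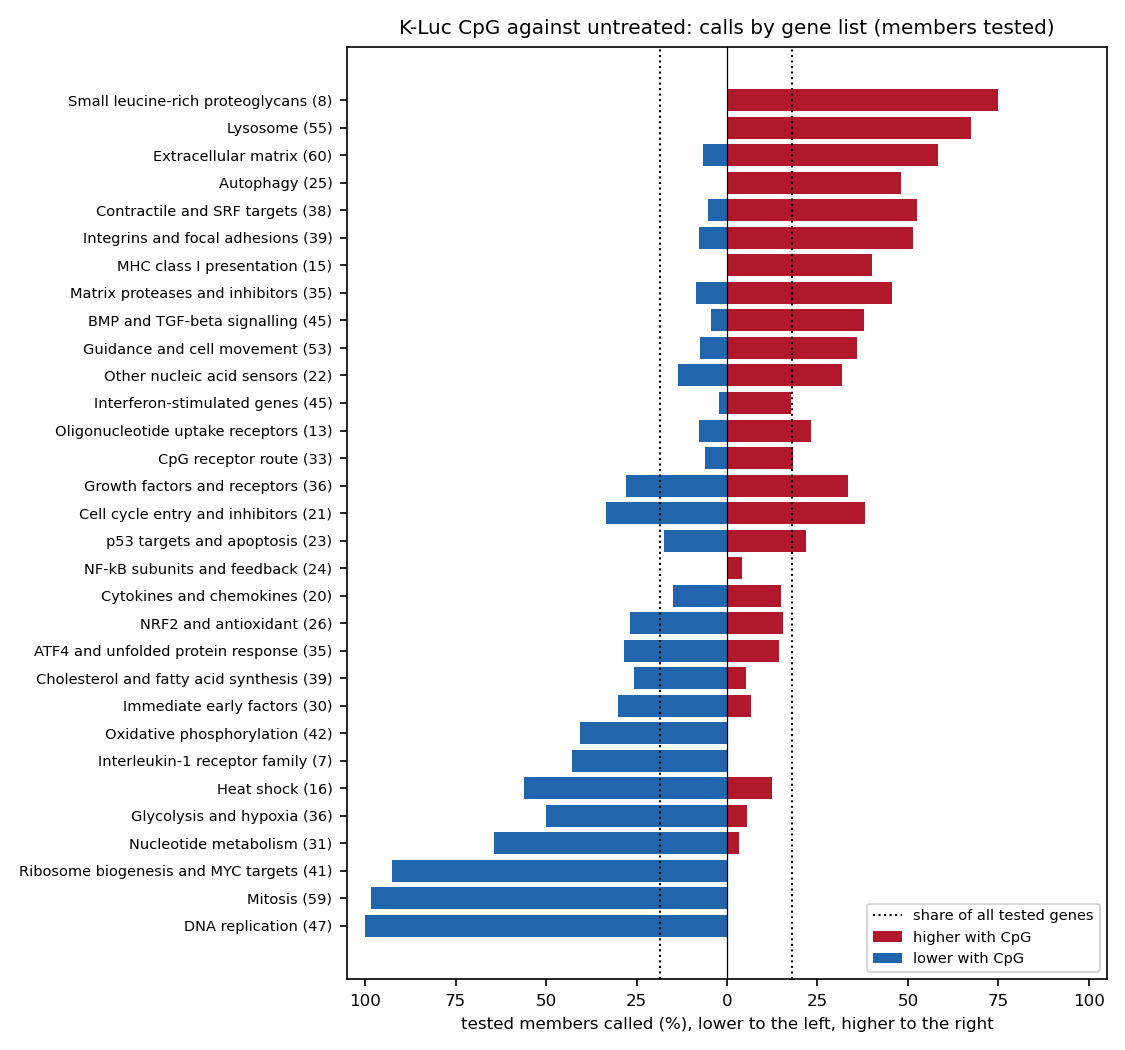
Share of tested members called higher (red, to the right) or lower (blue, to the left) with CpG in K-Luc cells for 31 gene lists, with the number of tested members in brackets and dotted lines at the shares of all tested genes (17.9% higher, 18.4% lower). DNA replication, mitosis and ribosome biogenesis lie almost wholly to the left, and small leucine-rich proteoglycans, lysosome and extracellular matrix mostly to the right.

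Several of the largest rises were in genes of the extracellular matrix. Small leucine-rich proteoglycans, which coat collagen fibrils and bind growth factors, had 8 of 14 listed members above the filter, and 6 of these rose, with 0 lower and a median of 2.04. Ogn, osteoglycin, was at 38.1 and 34.9 CPM untreated and 143, 143 and 122 CPM with CpG (2.04 ± 0.10, adjusted p = 2.97e-08). Prelp, an anchor between basement membrane and connective tissue, was at 15.8 and 6.59 CPM untreated and 70.7, 42.9 and 38.3 CPM with CpG (2.66 ± 0.45). Both genes were far above the controls in every treated library, and for Prelp replicate 1 was the highest library of either group. Fmod, fibromodulin (10.3 and 4.38 CPM against 36.5, 25.6 and 16.4 CPM, 2.29 ± 0.47), Omd (1.51 ± 0.23), Podn (0.675 and 0.354 CPM against 1.89, 1.12 and 1.58 CPM, 2.05 ± 0.36) and Aspn (2.52 ± 0.53, under 1 CPM in every untreated and CpG library) were the other members that rose. Aspn had 3 and 4 counts untreated. It passed the filter on low counts only through libraries given CpG-28, so it lends no support to the share of rises. The other 6 listed members, Dcn and Lum among them, were under the filter on low counts, so the median covers the detected genes only.

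Of 60 tested collagens and matrix glycoproteins 35 rose and 4 fell (58.3% higher, median 0.36), and among the 21 collagens 16 rose and 1 fell. Col1a1, the main fibrillar collagen chain, was at 4920 and 3830 CPM untreated and 7360, 6360 and 7020 CPM with CpG (0.69 ± 0.15). Col12a1 rose from 1390 and 1040 CPM to 2390, 2130 and 2170 CPM (0.98 ± 0.15), and the basement membrane chain Col4a6 from 148 and 142 CPM to 207, 202 and 208 CPM (0.53 ± 0.05, adjusted p = 5.51e-06). All 3 were higher in each CpG library than in either control. Thbs1, thrombospondin-1, an adhesion protein that activates latent TGF-beta, rose from 3270 and 2810 CPM to 5120, 4810 and 4550 CPM (0.71 ± 0.08). Nid2, nidogen-2 (33.7 and 32.4 CPM against 69.4, 56.3 and 62.9 CPM, 0.99 ± 0.10), and Fbn2, fibrillin-2 (0.92 ± 0.09), also rose. Postn, periostin, was much more uneven, with 146 and 66.5 CPM untreated and 373, 194 and 162 CPM with CpG (1.79 ± 0.51, adjusted p = 0.0249). The 4 falls were Fbln2 (-0.53 ± 0.18), Igfbp3 (-0.48 ± 0.08), Col7a1 (-0.38 ± 0.13) and Spp1 (-0.24 ± 0.07). Without untreated replicate 2, 18 matrix genes were called higher and 1 lower, and without untreated replicate 1 there were 2 falls.

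**Figure D3:**
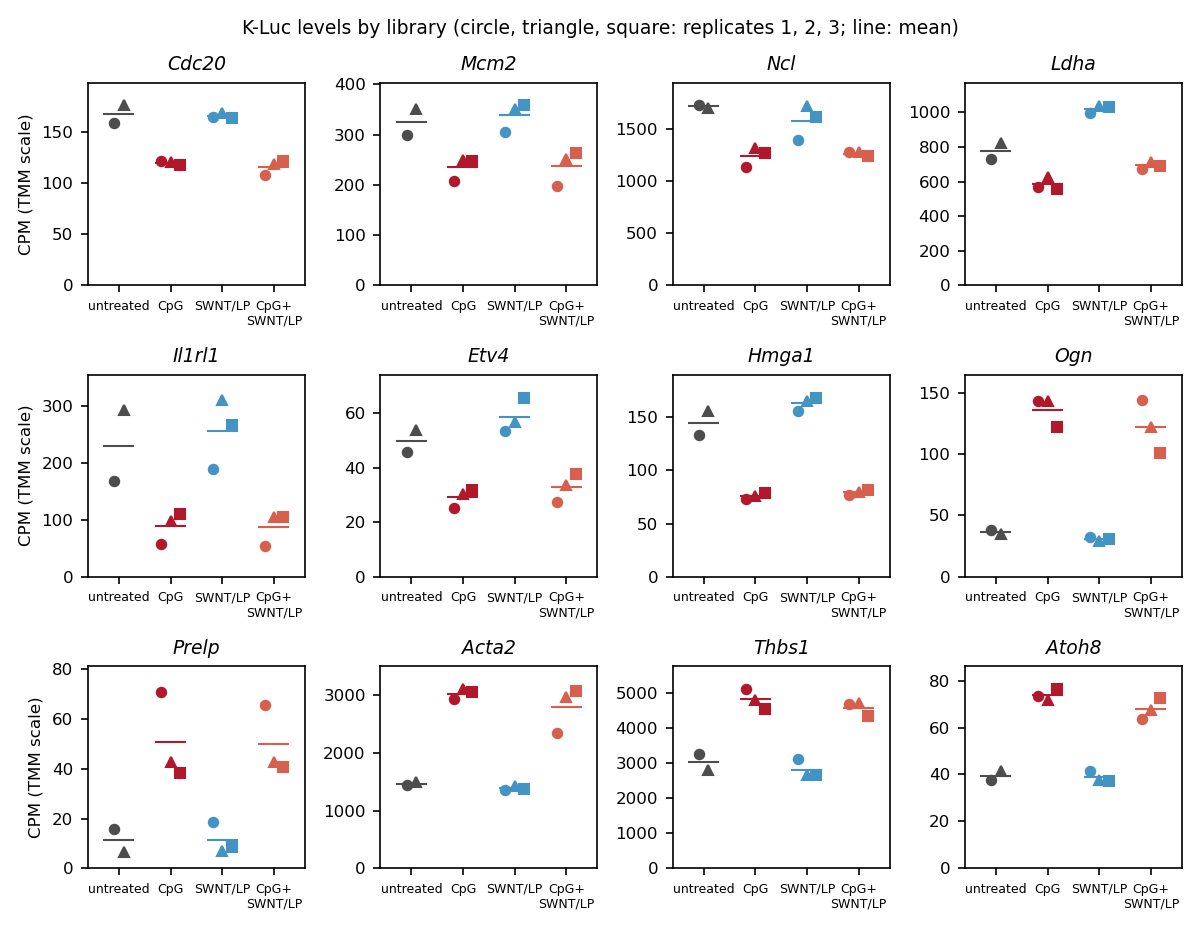
CPM of 12 genes in each K-Luc library of 4 groups on linear axes from 0, with circles, triangles and squares for replicates 1, 2 and 3 and a line at the group mean. The genes were picked by hand from those called with free CpG. In each, both groups with the oligonucleotide sit to one side of both groups without it. The share of all tested genes that do so was not counted. Ogn is near 36 CPM untreated against 122 to 143 CPM with CpG.

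Matrix turnover genes moved with the matrix. Of 35 proteases and inhibitors 16 rose and 3 fell. Timp3 (1590 and 1390 CPM against 2050, 1960 and 2060 CPM, 0.52 ± 0.06) and Timp2 (0.56 ± 0.08), both metalloproteinase inhibitors, rose, and their relative Timp1 fell from 179 and 221 CPM to 117, 130 and 147 CPM (-0.80 ± 0.09). The membrane-bound collagenase Mmp14 rose from 381 and 308 CPM to 564, 453 and 442 CPM (0.59 ± 0.14), and Mmp28 from 14 and 10 CPM to 22.9, 19.4 and 22.0 CPM (1.00 ± 0.15). Adamts5, an aggrecan-cleaving protease, was called (1.00 ± 0.21) although its groups overlapped (25.6 and 15.2 CPM against 38.9, 24.2 and 29.0 CPM). Without untreated replicate 2 this list held 4 rises and 2 falls.

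Collagen-binding integrins were higher with CpG. Integrins pair an alpha with a beta chain, and the alpha-1, -2, -10 and -11 chains form the collagen receptors. Itga11 rose from 2.32 and 1.02 CPM to 7.49, 4.62 and 4.78 CPM (2.19 ± 0.36), Itga1 from 15.4 and 16.9 CPM to 26.5, 29.3 and 31.0 CPM (0.76 ± 0.09) and Itga10 from 10.4 and 10.6 CPM to 19.2, 20.7 and 17.7 CPM (0.95 ± 0.12), and Itga2 rose too (0.90 ± 0.28). Each CpG library of the 3 genes given by library lay above the controls. Itga6, part of the laminin receptors, fell from 20.2 and 27.6 CPM to 15.2, 17.7 and 17.4 CPM (-0.68 ± 0.09), and the leukocyte chain Itgb7 fell at a lower level (4.12 and 4.16 CPM against 2.26, 1.82 and 2.56 CPM, -0.91 ± 0.18). Counting focal adhesion proteins as well, 20 of 39 rose and 3 fell (median 0.18). This count fell to 4 and 1 without untreated replicate 2.

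Contractile genes of the smooth muscle type rose, 16 of 26 higher and 2 lower. Acta2, smooth muscle actin, was at 1440 and 1490 CPM untreated and 2930, 3100 and 3050 CPM with CpG (0.88 ± 0.08, adjusted p = 2.12e-06). Myl9, a regulatory myosin light chain, rose from 76.4 and 76.6 CPM to 157, 168 and 174 CPM (0.97 ± 0.10). The treated libraries of both genes were at about the same level as each other and far above the controls. Mylk, the kinase of that light chain (19.3 and 18 CPM against 36.1, 30.1 and 27.8 CPM, 0.86 ± 0.14), Tagln, an actin-binding protein (191 and 181 CPM against 308, 293 and 273 CPM, 0.57 ± 0.08), the actin nucleator Lmod1 (1.5 and 0.929 CPM against 6.26, 3.96 and 4.90 CPM, 2.37 ± 0.33) and the intermediate filament gene Synm (2.00 ± 0.23) rose as well. Of 12 YAP targets, which respond to cell spreading, 4 rose and 0 fell. F3, tissue factor, listed with the contractile and SRF genes, rose from 48.9 and 49.5 CPM to 83.1, 78.4 and 73.4 CPM (0.70 ± 0.08). Of the 38 contractile and YAP genes together 10 rose and 1 fell without untreated replicate 2.

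Genes of BMP and TGF-beta signalling, which regulate matrix and contractile genes in many mesenchymal cells, were more often higher than lower, 17 against 2 of 45. Among ligands, Tgfb2 rose from 28.6 and 24.8 CPM to 42.1, 39.7 and 38.4 CPM (0.72 ± 0.10), Tgfb3 from 163 and 120 CPM to 245, 207 and 222 CPM (0.78 ± 0.14) and Bmp4 from 18.3 and 17.4 CPM to 28.8, 24.1 and 28 CPM (0.65 ± 0.11). No CpG library overlapped a control. Among targets, the transcription factor Atoh8 rose from 37.5 and 41.4 CPM to 73.5, 71.7 and 76.4 CPM (0.84 ± 0.07, adjusted p = 1.72e-06), the inhibitory Smad6 from 13.6 and 13.8 CPM to 25.9, 21.6 and 24.2 CPM (0.80 ± 0.11) and Id3 from 181 and 214 CPM to 308, 324 and 305 CPM (0.59 ± 0.07). Id1 (52.7 and 75.5 CPM against 67.2, 82.6 and 79.5 CPM, adjusted p = 0.619) and Id2 (adjusted p = 0.703), also standard BMP targets, were not called, and neither was the TGF-beta target Pmepa1 (-0.19 ± 0.10, adjusted p = 0.126). Fst, follistatin, an activin and BMP antagonist, rose from 2.70 and 3.05 CPM to 5.56, 6.86 and 7.12 CPM (1.19 ± 0.17). The counts were 7 higher and 1 lower without untreated replicate 2.

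Targets of growth factor signalling through ERK were among the falls. Of 30 immediate early and related factors 9 fell and 2 rose, and 5 and 0 did so without untreated replicate 2. Etv4, an ETS factor induced by FGF and ERK signals, was at 45.6 and 53.8 CPM untreated and 25.1, 30.4 and 31.7 CPM with CpG (-0.91 ± 0.10, adjusted p = 1.48e-05). Its relative Etv5 fell from 65.2 and 55.1 CPM to 44.2, 40.9 and 48.0 CPM (-0.41 ± 0.09). Fosl1, an AP-1 subunit, fell from 73.3 and 92.8 CPM to 46.7, 61.8 and 60.1 CPM (-0.75 ± 0.11), and the ERK phosphatase Dusp4 from 30.9 and 27.3 CPM to 18.2, 17.5 and 18.4 CPM (-0.67 ± 0.12). Treated and control libraries were separate in all 4 genes. Dusp6 (71.0 and 66.0 CPM against 57.5, 51.2 and 65.6 CPM, adjusted p = 0.396) and Spry2 (24.8 and 25.3 CPM against 25, 22.5 and 23.8 CPM, adjusted p = 0.871), which are feedback genes of the same pathway, were not called.

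Growth factors and their receptors changed in both directions, 12 higher and 10 lower of 36. These counts were 5 and 4 without untreated replicate 2. Areg, the EGF receptor ligand amphiregulin, fell from 3.07 and 3.58 CPM to 0.741, 0.746 and 1.02 CPM (-2.21 ± 0.34, adjusted p = 0.000176). The EGF receptor ligands Ereg (-0.63 ± 0.17) and Hbegf (-0.54 ± 0.12), the MET ligand Hgf (-0.64 ± 0.18), Fgf2 (-0.59 ± 0.22) and Gdnf (-0.45 ± 0.13) fell too. Rises were seen for Igf1, from 10.6 and 6.81 CPM to 15.9, 14.7 and 14.7 CPM (0.96 ± 0.12), for Agt, angiotensinogen (0.825 and 0.663 CPM against 2.26, 2.29 and 2.05 CPM, 1.65 ± 0.24), for Fgf1 (1.17 ± 0.30) and for the TIE2 ligand Angpt1 (69.3 and 58.6 CPM against 79.0, 79.4 and 71.0 CPM, 0.45 ± 0.07).

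Guidance receptors and ligands, which steer migrating cells, were mostly higher where they changed, with 19 of 53 rising and 4 falling. Sema3f, a secreted repellent, rose from 17.5 and 13.2 CPM to 40.8, 34.6 and 32.4 CPM (1.31 ± 0.13, adjusted p = 4.39e-06). The ephrin receptors Epha4 (32.4 and 25.7 CPM against 61.9, 48.6 and 51.9 CPM, 1.03 ± 0.10), Ephb6 (32.4 and 25.9 CPM against 57.7, 54.0 and 56.3 CPM, 1.01 ± 0.09) and Epha3 (12.7 and 8.14 CPM against 31.8, 20.7 and 18 CPM, 1.43 ± 0.27) rose, with every CpG library above the controls. The hyaluronan receptors Hmmr, described above, and Cd44 (587 and 637 CPM against 445, 541 and 553 CPM, -0.35 ± 0.09) were among the falls. There were 8 rises and 2 falls without untreated replicate 2. Migration itself was not analysed here.

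Lysosomal genes rose widely but by little, 37 of 55 higher and 0 lower (67.3%, median 0.32), including 27 of 36 hydrolases. Smpd1, acid sphingomyelinase, was at 49.3 and 43.1 CPM untreated and 72.0, 59.1 and 59.1 CPM with CpG (0.55 ± 0.10). Ctso, a cysteine cathepsin, rose from 25.7 and 20.7 CPM to 37.9, 31.1 and 30.6 CPM (0.67 ± 0.12), and the membrane protein gene Lamp2 from 563 and 490 CPM to 613, 591 and 578 CPM (0.30 ± 0.05). The groups did not overlap in these, but for Ids, a sulfatase, untreated replicate 1 was the highest of the 5 libraries (128 and 88.5 CPM against 121, 109 and 113 CPM, 0.36 ± 0.06). The lysosomal count moved with the run term: 19 rose without it, where the rises among all tested genes also dropped, from 2217 to 1580. The list median was 0.24 with no run term, 0.31 with run 2 alone and 0.34 without untreated replicate 2. Of 25 autophagy genes 12 rose and 0 fell, among them the ubiquitin-like membrane markers Map1lc3a (0.51 ± 0.10) and Map1lc3b (107 and 106 CPM against 143, 127 and 128 CPM, 0.30 ± 0.06), Wipi1 (0.37 ± 0.07) and the cargo receptor Nbr1 (0.24 ± 0.05). Without untreated replicate 2 there was 1 rise.

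**Figure D4:**
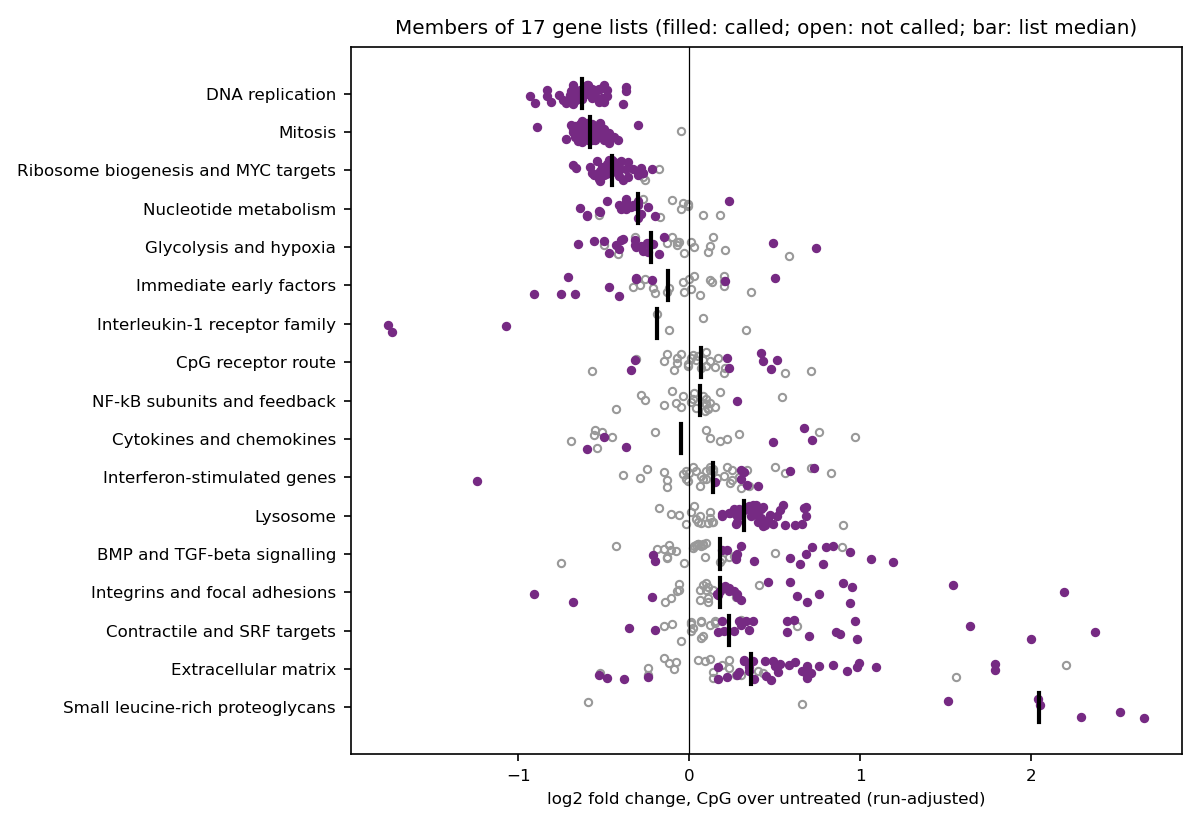
Log2 fold change, CpG over untreated and adjusted for run, of each tested member of 17 gene lists, with filled points for called genes, open points for others and a bar at the list median. Replication genes lie between -0.93 and -0.37, lysosomal genes have a median of 0.32, and the proteoglycans reach from -0.59 to 2.66.

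Other genes among the 12 largest rises, chosen by the rule given for the falls, included some at low levels. Gdpd2, a glycerophosphodiester phosphodiesterase, rose from 3.90 and 2.21 CPM to 14.2, 9.98 and 9.85 CPM (2.19 ± 0.28), and Cilp2, a cartilage matrix protein, from 3.6 and 2.57 CPM to 10.5, 7.60 and 7.68 CPM (1.70 ± 0.20). Crygs, a lens crystallin gene (0.675 and 0.619 CPM against 3.38, 4.57 and 2.35 CPM, 2.23 ± 0.39), and the unnamed locus Gm15698 (1.12 and 0.442 CPM against 5.31, 2.19 and 2.43 CPM, 2.94 ± 0.54) rose from under or near 1 CPM. Kctd12, a GABA-B receptor auxiliary subunit, rose from 8.32 and 4.33 CPM to 23.2, 10.3 and 8.49 CPM (1.97 ± 0.55, adjusted p = 0.0194), where CpG replicate 3 barely exceeded untreated replicate 1. In 4 of these 5 genes, Crygs excepted, replicate 1 was the highest library of each group. With CpG replicate 1 left out, 132 genes were called higher by more than 2-fold, against 199 with it.

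The same oligonucleotide was also added on top of nanotubes, in libraries that share no sample with the comparison above. CpG+SWNT/LP against SWNT/LP gave 3825 called genes (30.8%), 1867 higher (15.0%) and 1958 lower (15.8%). Of these, 2988 were also called with free CpG, which is 66.4% of the free CpG calls and 78.1% of the calls with nanotubes. Within that overlap 2986 moved in the same direction, and the 2 that did not were 3830403N18Rik and Dennd6b. Across the tested genes the correlation of the 2 log2 fold changes was r = 0.67, given as a description since genes are not replicates and all libraries share the run term. With run 2 libraries alone r was 0.62, and 2093 genes were called in both, with 0 in opposite directions. Of the 224 genes changed by more than 2-fold by free CpG, 142 were called with nanotubes and 212 had the same sign.

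Many of the gene groups gave similar counts with the nanotubes present, and some did not. DNA replication had 46 falls of 47 (median -0.38), mitosis 57 of 59 (median -0.48), ribosome biogenesis 28 of 41, the matrix list 35 rises and 5 falls of 60, and the proteoglycans 6 rises of 8 (median 1.39). Ogn was at 1.90 ± 0.09, Acta2 at 1.11 ± 0.06, Hmga1 at -0.99 ± 0.05 and Il1rl1 at -1.32 ± 0.25 on the log2 scale. Lysosomal rises were fewer, 12 of 55 with 1 fall. Interferon-stimulated genes had 6 rises and 5 falls of 45, against 8 and 1 with free CpG, and NF-kB genes 5 rises and 0 falls of 24, against 1 and 0. These differences between counts were not tested. The difference between the responses was tested for every gene by an interaction term, and 0 genes were called (0% of 12420), by DESeq2 also 0. At an unadjusted p under 0.05 there were 427 genes (3.44%), so no gene can be named as differing, which does not show that the responses are equal.

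**Figure D5:**
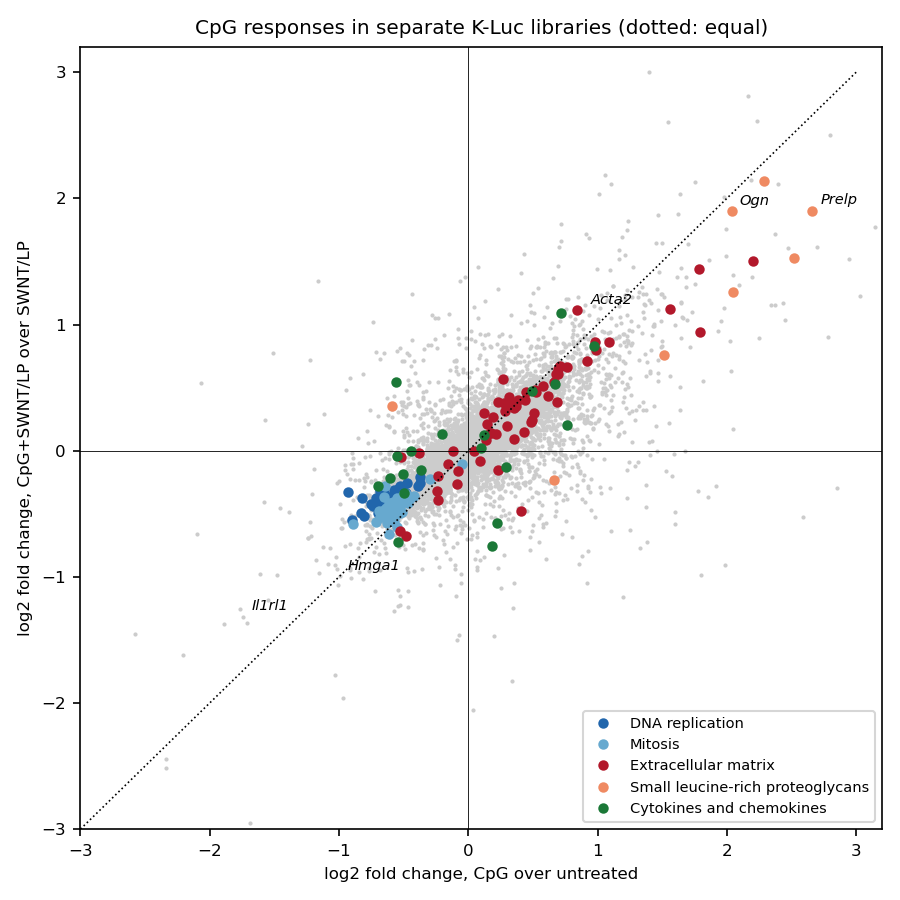
Log2 fold change with free CpG (horizontal) against that with CpG added to nanotubes (vertical) for each tested gene, with 5 gene lists in colour, a dotted line of equality, and 7 genes outside the axes not shown. Replication and mitosis genes lie in the lower left and matrix genes in the upper right, with Ogn at 2.04 and 1.90 and Il1rl1 at -1.74 and -1.32.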

How the data were processed

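The authors deposited raw read counts of 21669 genes for 24 libraries, prepared from poly(A) RNA with strand kept. They worked, per the submitters' processing notes, with the mm9 build, TopHat2 2.0.14 and HTSeq 0.6.0, and which annotation and strand option they chose is not given in the sources used here. Rounded RPKM values, also deposited by the authors, served to check relative depth, which was 0.975 to 1.01 times that of the counts in the 5 main libraries. Tests were run with edgeR 4.0.16 (R 4.3.3). Libraries were scaled by TMM, genes were filtered with filterByExpr by group (minimum count 10, minimum total 15), dispersions were robust, and p-values of the quasi-likelihood F test were adjusted by Benjamini-Hochberg over all tested genes with a threshold of 0.05. Group and run were the terms for 14 K-Luc libraries (8 residual degrees of freedom, biological coefficient of variation 0.0513), and group alone for 10 RAW-Blue libraries (5 residual degrees of freedom). Standard errors were derived as the size of the fold change over the square root of F. A gene at 1 CPM had 13 to 24 counts in the 5 main libraries.

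The members and the 34 gene lists were chosen with earlier results of these data known. Of 1194 list entries 1192 were in the table and 1048 passed the filter. Lists are described by counts and medians with no set test. The naming rule took the 12 largest rises and 12 largest falls (called, mean log2 CPM of at least 1, no overlap, over 3 counts in each group), the members with the smallest adjusted p from every list, at most 4 each, and Actb, Il6, Myd88, Tnf, Unc93b1, Tlr2, Tlr3, Tlr4, Tlr7 and Tlr9. All other named genes were chosen after their values were seen: Sox2, Sox9, Vim, Gfap, Tlr1, Lif, Il33, Mcm2, Cdk1, Mki67, Pttg1, Ncapg, Kif11, Kif22, Ccnd2, Cdkn1a, Cdkn1b, Bbc3, Aspn, Col1a1, Col12a1, the matrix falls, Mmp14, Adamts5, Itga2, Itgb7, Mylk, Tagln, Tgfb3, Bmp4, Id1, Id2, Pmepa1, Fst, Dusp6, Spry2, Epha3, Fgf1, Areg, the other growth factors named as lower, Dcn, Lum, Eda2r, Aen, Casp8, Aldh1l1, Dennd6b and 3830403N18Rik. Each comparison was repeated with DESeq2 1.42.0, with DESeq2 size factors, without a filter, without the run term, with a replicate block, on the compared groups only, on run 2 only and leaving out single libraries. Further settings for list counts were added after the data were seen. The fit was tested on simulated data that held no effect of run or replicate, so that test does not cover the adjustment for run. Promoter sequences are from RefSeq on GRCm38.p6, not the build of the files, and were matched by symbol.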

Additional observations from a re-analysis of the deposited data

Results flagged for a closer look

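Among the named genes, 18 were called in opposite directions with CpG in K-Luc and RAW-Blue cells and had no overlap between the groups in either line. They were picked by that rule, and no share is given, of the named genes or of all genes tested in both lines. The count is therefore not a result about these genes. Other named genes were called higher in both lines, among them Ikbke (0.51 in K-Luc and 0.91 in RAW-Blue), Ifih1 (0.46 and 0.96) and Tnip1 (0.28 and 0.74). Several RAW-Blue calls were close to the threshold. In edgeR's test there, adjusted p was 0.0338 to 0.0498 for Nes, Asns, Mthfd2, Il1rl1, Tapbp, Cd44 and Hspd1, and 0.024 or less for the others. The difference itself was not tested, and the treatment times differ (17 to 19 h against 47 to 50 h). In each gene given here the first value is the log2 fold change in K-Luc and the second that in RAW-Blue.

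Most of the genes with opposite calls were lower in K-Luc and higher in RAW-Blue. The cytokine and receptor genes Ccl7 (-0.60 and 3.71), Lif (-0.50 and 1.89) and Il1rl1 (-1.74 and 0.38) were of this kind, as was the interferon-induced Oasl1 (-1.24 and 0.94). So were the AP-1 and ERK targets Fosl1 (-0.75 and 1.48) and Dusp4 (-0.67 and 0.43), cyclin D1, Ccnd1 (-0.44 and 0.29), and the acyl-CoA synthetase Acsbg1 (-1.55 and 1.07). The ATF4 targets Asns (-0.41 and 0.47) and Mthfd2 (-0.55 and 0.35), the chaperonin Hspd1 (-0.51 and 0.30), the filament gene Nes (-0.35 and 0.53) and the hyaluronan receptor Cd44 (-0.35 and 0.28) followed the same pattern.

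Higher in K-Luc and lower in RAW-Blue were Igf1 (0.96 and -0.94), the p53 target Sesn1 (0.55 and -0.52), the lysosomal protease Lgmn (0.43 and -0.66), the peptide-loading gene Tapbp (0.53 and -0.31) and the lipopeptide receptor Tlr2 (0.39 and -0.38).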

How the results depend on the processing

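Of 166 named genes called with free CpG in K-Luc cells, 0 changed direction in any of 12 alternatives. Calls were lost for 49 with untreated replicate 2 left out, 24 with only the compared groups, 19 with no run term and 11 with run 2 alone, and for 0 to 7 in each other alternative. Against 4498 genes called, the counts ran from 1531 to 4343 with 1 library left out (645 to 2140 higher, 886 to 2203 lower, 109 to 215 higher and 11 to 30 lower by over 2-fold). With only the compared groups they were 2543 (1171 higher, 1372 lower, 121 and 16 by over 2-fold), and with run 2 alone 1470 were higher. In those fits a lone control is assumed to vary like the other groups. The causes were not tested.

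The labels do not say that replicate numbers pair the samples. Untreated and CpG libraries of the same number had deviations correlated at 0.23 and 0.21, SWNT/LP and CpG+SWNT/LP libraries at 0.00, 0.04 and -0.03, and RAW-Blue libraries at 0.12 and 0.12. With the replicate block 5134 genes were called with free CpG, 6185 with nanotubes (3020 higher, 3165 lower, 189 higher by over 2-fold) and 2 for the difference between the responses, which stood at 0 under every other alternative. Many list medians with free CpG were nearer to no change with that block. They were -0.52 for DNA replication and 0.26 for the lysosome, against -0.63 and 0.32 in the main fit. Immediate early factors went the other way, from -0.12 in the main fit to -0.16. With the block 158 genes were called higher and 35 lower by over 2-fold with free CpG, against 199 and 25.

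With nanotubes, leaving out 1 library gave 2517 to 5036 calls (1197 to 2383 higher, 1320 to 2653 lower, 92 to 188 higher and 16 to 32 lower by over 2-fold), and only the compared groups 2007 (1070 higher, 937 lower). In RAW-Blue cells the ranges were 357 to 5186 calls (177 to 2730 higher, 180 to 2456 lower), with 125 (82 higher, 43 lower) for only the compared groups. RAW-Blue Tlr7 was at 0.06, at -0.22 without untreated replicate 1 and at 0.41 without untreated replicate 2. Genes under about 1 CPM rest on few counts, and their changes are the least certain. Aspn, Stab2, Dpep1 and Fabp7 passed the filter only through libraries given CpG-28. Their rises were thus favoured by the filter and lend no support to the counts of their lists. The fall of Il18r1 carries the reverse limit, as given with its family.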

Other observations

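Antioxidant and lipid synthesis genes changed in both directions with free CpG, by small amounts in most of those named. Of 26 NRF2 and antioxidant genes 4 rose and 7 fell, but 1 rose and 1 fell without untreated replicate 2, and 2 rose without CpG replicate 1. Gstm1, a glutathione transferase, rose from 63.6 and 64.5 CPM to 111, 101 and 99.8 CPM (0.70 ± 0.07, adjusted p = 4.29e-06), whereas the thioredoxin system genes Txnrd1 (310 and 311 CPM against 233, 252 and 256 CPM, -0.35 ± 0.06) and Txn1 (-0.37 ± 0.09) and the glutathione reductase Gsr (-0.38 ± 0.07) fell. Of 39 cholesterol and fatty acid synthesis genes 10 fell and 2 rose (5 and 0 without untreated replicate 2). The cholesterol transporter Stard4 (-0.22 ± 0.05) and the acyl-CoA synthetase Acsl5 (-0.21 ± 0.05) fell slightly, and the acetyl-CoA synthetase Acss2 rose (0.62 ± 0.13).

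Heat shock genes were lower in 9 of 16 and higher in 2. The mitochondrial chaperonin pair Hspd1 (332 and 360 CPM against 224, 265 and 265 CPM, -0.51 ± 0.09) and Hspe1 (66.8 and 68.2 CPM against 46.1, 47.1 and 48.8 CPM, -0.48 ± 0.09) fell together, and the cytosolic chaperones Hsp90aa1 (-0.40 ± 0.07) and Hspa4 (-0.24 ± 0.04) fell as well. Without untreated replicate 2 there were 4 falls and 0 rises, and without untreated replicate 1 there were 5 falls. Of the fibroblast and vessel markers 8 were tested and 2 rose, Pdgfrb, the PDGF receptor of mesenchymal cells, from 368 and 292 CPM to 486, 406 and 419 CPM (0.48 ± 0.12), and Dpep1 (1.75 ± 0.41). Neither was called without untreated replicate 2. Their summed level was 602 to 730 CPM untreated and 735 to 856 CPM with CpG, with Cldn5, Kcnj8, Abcc9 and Tcf21 at 0 counts in both groups, and their part in the matrix rises was not tested. Of 16 tested glial markers 2 rose and 3 fell, with 1 of each without untreated replicate 2. The low Fabp7 (0.375 and 0.31 CPM against 0.947, 0.886 and 0.81 CPM, 1.86 ± 0.39) and Slc1a3 (0.92 ± 0.33) rose, and Nes (-0.35 ± 0.09), Cd44 (-0.35 ± 0.09) and the low Aldh1l1 (-2.34 ± 0.86) fell.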
